A study of Mus musculus with 15 samples.

Results

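A set of 10 mRNA of the thioredoxin and glutathione systems was followed through naïve, TCR activated and cytotoxic CD8+ T cells. They are Txnip, Txn1, Txnrd1, Gclc, Gclm, Gpx1, Gpx4, Prdx1, Prdx4 and Srxn1, chosen by gene symbol, and all 10 were found among the 11262 mRNA of one deposited table and among the 11211 mRNA of the other. At 24 h after TCR activation, Txnip had fallen 13.6-fold while Txn1 and Prdx4 had risen 8.81-fold and 9.04-fold. Inhibition of PI3K p110δ during activation moved none of the 10 mRNA by more than 2-fold. In CTL deprived of IL-2 for 24 h, Txnip was 3.36-fold higher and Txnrd1, Prdx1 and Srxn1 were each more than 2-fold lower than in CTL kept in IL-2.

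All cells came from P14 mice, which carry a transgenic TCR specific for the LCMV glycoprotein peptide gp33–41. Nearly all of their CD8+ T cells thus share one antigen specificity. For the first 3 groups, lymph node cells of 3 female mice aged 9 to 13 weeks were pooled for each replicate and divided equally over the conditions. Naïve cells were sorted directly as CD62L high, CD44 low CD8+ cells. TCR cells received the gp33–41 peptide at 100 ng/ml, with IL-2 at 20 ng/ml and IL-12 at 2 ng/ml, and live CD8+ cells were sorted after 24 h. TCR+PI3Kdi cells had in addition 10 µM IC87114, a selective inhibitor of p110δ, throughout those 24 h. CTL were activated for 48 h, cultured for 4 more days in 20 ng/ml IL-2, washed on day 6, and then held for 24 h with 20 ng/ml IL-2 or with none. Each of the 5 groups has 3 replicates, which makes 15 libraries. The activated cells and CTL were cultured in medium with β-mercaptoethanol, a thiol reductant, and naïve cells were not cultured, so TCR activation, its cytokines and culture cannot be told apart in the comparison with naïve cells.

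The values are FPKM, fragments per length of exon scaled for library size, which can be compared between genes because they are given per length. An FPKM is relative to the other mRNA of its library, so fewer cells expressing a gene and less mRNA per cell cannot be told apart, and neither can a change in total mRNA per cell. The 2 tables were normalised separately, so tests were run within a table only. Read totals are not in the tables and the depth of each library is unknown, hence no counting interval is given. The summed FPKM of 5 CD8 T cell markers was 3189 to 3482 in naïve libraries, 637 to 685 in TCR libraries, 811 to 953 in TCR+PI3Kdi libraries, 971 to 1042 in CTL with IL-2 and 1876 to 2069 in CTL without IL-2. B cell markers, of which 4 of 6 were in the first table, summed to 20.9 to 26.3 FPKM in naïve cells and to 3.3 to 7.12 in both activated groups. Of the 6 B cell markers 1 was measured in CTL, at 2.74 to 6.3 FPKM with IL-2 and 10.8 to 20.6 without. Of 13 myeloid and dendritic cell markers, 5 were measured there and summed to 71.8 to 80.1 FPKM with IL-2 and 122 to 128 without. Most of this sum was Cst3, while Itgam was at 0.2 to 0.39 FPKM with IL-2 and 3.89 to 4.46 without, Itgax at 0.21 to 0.39 and 3.67 to 5.17, and Fcgr3 at 1.33 to 2.61 and 14.8 to 15. In the first table, 3 of the 13 were measured, with sums of 49.4 to 60.8 FPKM in naïve, 39.5 to 60.7 in TCR and 42.3 to 52.1 in TCR+PI3Kdi libraries. Of 4 CD4 T cell markers, 3 were measured in each table, and their sums were 4.12 to 5.72 in naïve cells, 59.1 to 199 in both activated groups and 22.4 to 33.3 in both CTL groups. In the activated groups most of the sum was Tnfrsf4 (57.6 to 198 FPKM), with Zbtb7b at 0.38 to 1.16 and Foxp3 at 0.12 to 0.93. In both CTL groups most of it was Zbtb7b (16.7 to 28.3 FPKM), with Tnfrsf4 at 3.04 to 7.62 and Cd4 at 0.05 to 1.92. Of 7 stromal and endothelial markers 1, Pecam1, was measured in both tables (55.6 to 66 in naïve cells, 2.25 to 8.2 in both activated groups, 22.5 to 30.5 in CTL with IL-2 and 50.3 to 62.4 without). None of 10 erythroid and platelet markers was in either table. The part of these other cells in the results was not tested.

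Thioredoxin and glutathione are the main carriers of reducing power from NADPH to oxidised proteins and peroxides. Thioredoxin reductase renews thioredoxin, thioredoxin renews the peroxiredoxins that destroy hydrogen peroxide, and glutathione serves the glutathione peroxidases in a parallel line. T cells make more reactive oxygen species when they are activated and begin to grow, and both systems are known to be needed for their expansion. TXNIP stands apart from the other proteins because it binds reduced thioredoxin and holds it inactive, and because it is an arrestin-domain protein that limits glucose uptake.

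Txnip was among the most abundant mRNA of naïve CD8+ T cells. Its level was 308, 333 and 292 FPKM in the 3 naïve replicates, 26.1, 20.8 and 21.8 FPKM in TCR cells and 26.6, 28.8 and 38.6 FPKM in TCR+PI3Kdi cells. Every naïve library lay far above every activated one, and the lowest TCR+PI3Kdi value was just above the highest TCR value. In CTL, Txnip was at 147, 146 and 121 FPKM with IL-2 and at 461, 454 and 474 FPKM without, so that the CTL deprived of IL-2 did not overlap with those kept in it. Among the 10637 mRNA found in both tables, Txnip stood at a mean percentile of 98.4 in naïve cells, 65.9 in TCR cells, 73.8 in TCR+PI3Kdi cells, 94.7 in CTL with IL-2 and 98.8 in CTL without IL-2. The log2 fold change was -3.76 ± 0.14 (SE) from naïve to TCR cells, with an adjusted p of 6.57e-10 in limma, and 1.75 ± 0.09 on removal of IL-2, with an adjusted p of 4.88e-07.

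Txn1, which encodes the cytosolic thioredoxin that TXNIP binds, went the opposite way. It was at 39.7, 46.2 and 28.1 in naïve cells, 258, 363 and 378 FPKM in TCR cells and 287, 274 and 257 FPKM in TCR+PI3Kdi cells. The naïve libraries were separate from both activated groups, and those overlapped each other. CTL had 322, 261 and 281 FPKM of Txn1 with IL-2 and 149, 142 and 142 FPKM without, again with no overlap. Txn1 rose by 3.14 ± 0.18 (SE) on the log2 scale from naïve to TCR cells (adjusted p = 2.32e-08). On IL-2 removal its log2 fold change was -0.99 ± 0.09 (adjusted p = 8.99e-06), which is 1.99-fold and so just short of the 2-fold limit.

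Txnrd1, the selenium-containing reductase that renews cytosolic thioredoxin with NADPH, followed Txn1. Naïve cells had 31.6, 32.9 and 28.7 FPKM, TCR cells 90.6, 114 and 130 FPKM, and TCR+PI3Kdi cells close to 110 FPKM in all 3 replicates (110.3, 110.1 and 109.8). Both activated groups were above the naïve one. CTL had 74.7, 72.4 and 78.1 FPKM with IL-2 and 35.6, 32.7 and 32.2 FPKM without, a range not far from the naïve one although set on another scale. The log2 fold change was 1.83 ± 0.12 (SE) from naïve to TCR cells (adjusted p = 5.59e-08) and -1.16 ± 0.08 on IL-2 removal (adjusted p = 1.33e-06). TCR replicate 1 had the lowest Txn1, Txnrd1, Prdx1, Gclm and Srxn1 and the highest Txnip, Gpx1 and Gpx4 of the 3 TCR libraries. Without that library, an alternative chosen after the values were seen, the same 5 mRNA were called higher and the same 1 lower in TCR cells.

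**Figure D1:**
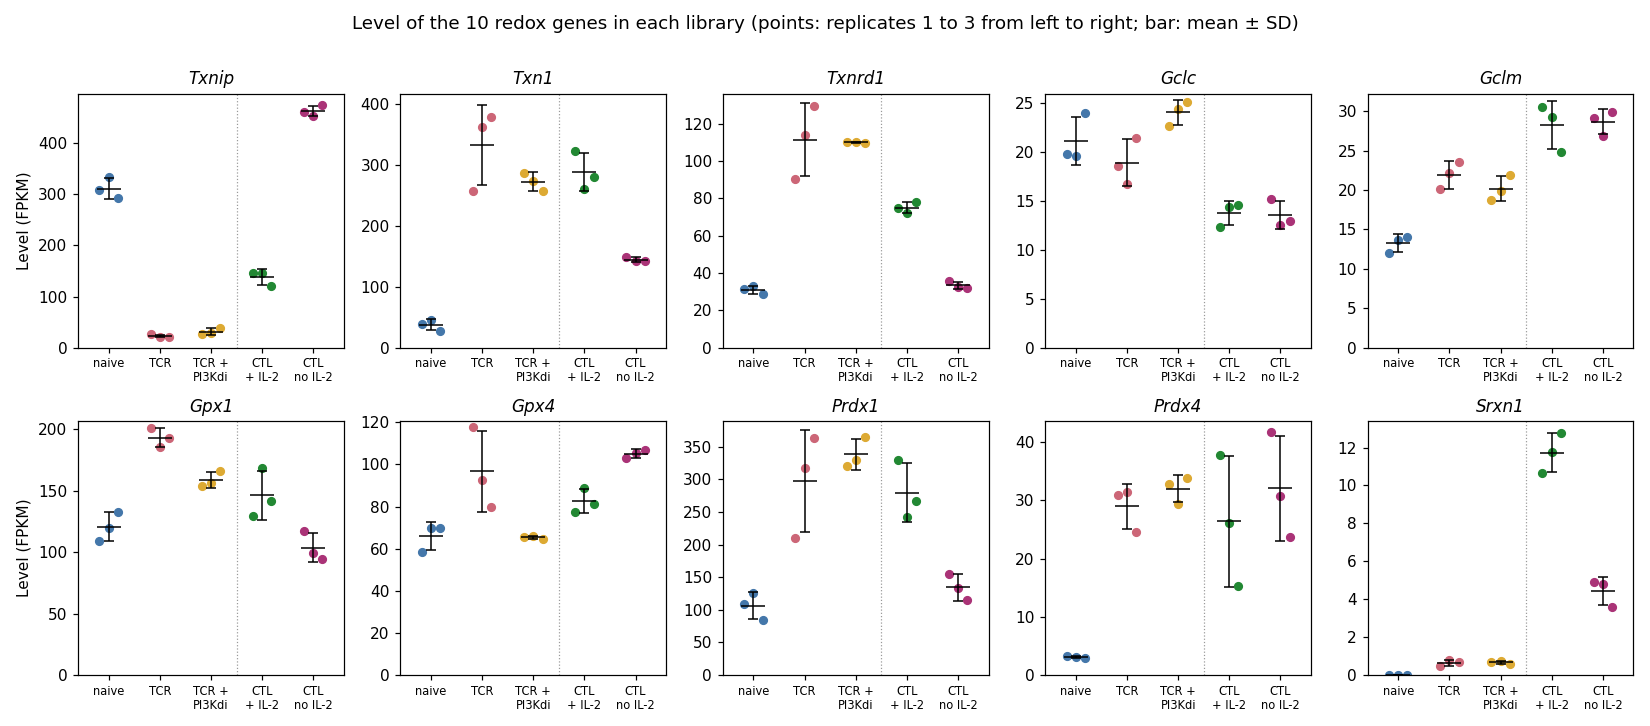
Level of each of the 10 mRNA in FPKM on linear axes from 0, 1 panel per gene, with the 5 groups along the x axis, 1 point per replicate, and the mean ± SD as a bar (n = 3). The dotted line parts the 2 separately normalised tables. On each side of the line, the group with the highest Txnip (naïve cells, and CTL without IL-2) has the lowest Txn1, Txnrd1 and Prdx1.

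The ratio of Txnip to Txn1 within a library does not depend on how libraries were scaled. It was 7.76, 7.21 and 10.4 in naïve cells, 0.101, 0.0574 and 0.0576 in TCR cells and 0.0924, 0.105 and 0.15 in TCR+PI3Kdi cells. CTL with IL-2 had ratios of 0.456, 0.56 and 0.43, and CTL without IL-2 had ratios of 3.09, 3.19 and 3.35. Txnip mRNA thus exceeded Txn1 mRNA in every naïve library and every CTL library without IL-2, and in no library of the other 3 groups. In order of their means the groups were naïve (8.45 ± 1.70, SD, n = 3), CTL without IL-2 (3.21 ± 0.13), CTL with IL-2 (0.482 ± 0.0687), TCR+PI3Kdi (0.116 ± 0.0302) and TCR (0.072 ± 0.0252). The libraries of these neighbours did not overlap except those of the last pair.

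**Figure D2:**
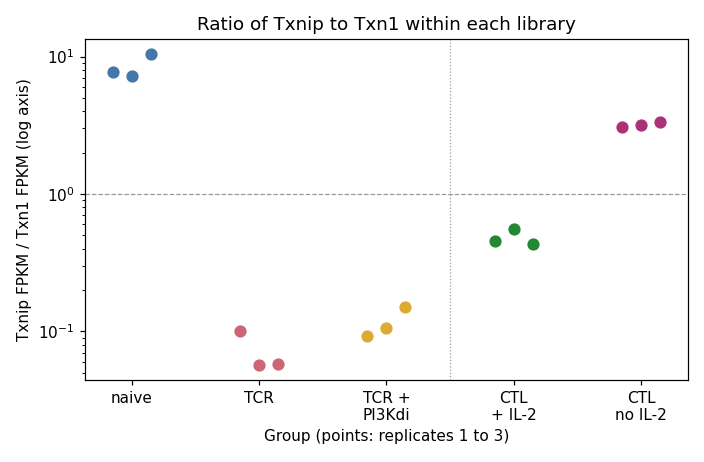
Txnip FPKM divided by Txn1 FPKM in each library, on a log axis, with 1 point per replicate (n = 3 for each of 5 groups) and a dashed line where both are equal. The 3 naïve and the 3 CTL libraries without IL-2 lie above the line, and the other 9 lie below it.

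Of the peroxiredoxins, Prdx1 is cytosolic and abundant and Prdx4 works in the endoplasmic reticulum. In the naïve replicates Prdx1 was at 110, 125 and 84.8 FPKM, against 210, 317 and 363 FPKM in TCR cells and 320, 329 and 365 FPKM in TCR+PI3Kdi cells. All activated libraries were above all naïve ones. In CTL it was at 330, 242 and 267 FPKM with IL-2 and 155, 133 and 115 FPKM without, with no overlap. The log2 fold change of Prdx1 was 1.46 ± 0.19 (SE) from naïve to TCR cells (adjusted p = 2.30e-05) and -1.06 ± 0.14 on IL-2 removal (adjusted p = 9.09e-05). The second of these was -0.97 without replicate 3, below the 2-fold limit.

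Prdx4 was near 3 FPKM before activation (3.32, 3.14 and 2.85) and rose 9.04-fold. TCR cells had 30.9, 31.4 and 24.6 FPKM and TCR+PI3Kdi cells 32.7, 29.3 and 33.8 FPKM, so both activated groups were far from the naïve one and overlapped each other. The log2 fold change from naïve to TCR cells was 3.18 ± 0.12 (SE), with an adjusted p of 7.91e-10. In CTL, Prdx4 varied widely between replicates relative to its mean, with 37.8, 26.1 and 15.2 FPKM with IL-2 and 41.7, 30.8 and 23.6 FPKM without. Each replicate was higher without IL-2 than the same-numbered one with IL-2, although the groups overlapped. The log2 fold change on IL-2 removal was 0.34, with a 95% interval from -0.34 to 1.02 and an adjusted p of 0.338. With the replicate number as a block the adjusted p was 0.0197 for the same fold change, and over 9 alternatives it ranged from 0.0197 to 0.453.

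Srxn1 encodes sulfiredoxin, which repairs peroxiredoxins that have been oxidised too far. It had the lowest level of the 10 mRNA in every group. Its cells were blank in all 3 naïve libraries and were read as 0, and TCR cells had 0.49, 0.8 and 0.69 FPKM and TCR+PI3Kdi cells 0.68, 0.72 and 0.6 FPKM. It was thus listed in every activated library and in no naïve one, and no fold change is given against a group listed at 0. The fit called it higher in both activated groups, a call that was lost in both with a pseudocount of 1 in place of 0.1. In CTL, Srxn1 was at 10.7, 11.8 and 12.7 FPKM with IL-2 and 4.9, 4.81 and 3.59 FPKM without, groups that did not overlap. Its log2 fold change on IL-2 removal was -1.39 ± 0.14 (SE), with an adjusted p of 1.93e-05.

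From naïve to TCR cells the 4 glutathione genes had smaller log2 fold changes than the thioredoxin and peroxiredoxin genes with a value. Gclc encodes the catalytic and Gclm the modifier subunit of glutamate-cysteine ligase, which sets the rate of glutathione synthesis. Gclc was at 19.9, 19.6 and 24 in naïve cells, 18.6, 16.8 and 21.5 FPKM in TCR cells and 22.7, 24.4 and 25.1 FPKM in TCR+PI3Kdi cells, with naïve values overlapping both activated groups. Its log2 fold change from naïve to TCR cells was -0.16, with a 95% interval from -0.41 to 0.09 (adjusted p = 0.215). Gclm was at 12, 13.7 and 14.1 in naïve cells, 20.1, 22.1 and 23.5 FPKM in TCR cells and 18.7, 19.9 and 21.9 FPKM in TCR+PI3Kdi cells. The naïve libraries were below all activated ones, and the log2 fold change from naïve to TCR cells was 0.72 ± 0.10 (SE), with an adjusted p of 5.31e-05. The catalytic subunit was thus the more abundant mRNA in every naïve library, and the modifier was the more abundant in every TCR library. In every TCR+PI3Kdi library Gclc was again above Gclm. CTL had 12.3, 14.4 and 14.6 FPKM of Gclc with IL-2 and 15.2, 12.5 and 12.9 without. Gclm was at 30.6, 29.3 and 24.8 FPKM with IL-2 and at 29.1, 26.9 and 30 FPKM without. The CTL groups overlapped for both subunits, with 95% intervals of the log2 fold change from -0.28 to 0.23 for Gclc and from -0.20 to 0.25 for Gclm.

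Gpx1 and Gpx4 encode selenium-containing glutathione peroxidases. GPX1 reduces hydrogen peroxide, and GPX4 reduces lipid peroxides in membranes and so protects cells from ferroptosis. Gpx1 was at 109, 119 and 133 in naïve cells, 201, 186 and 192 FPKM in TCR cells and 154, 156 and 166 FPKM in TCR+PI3Kdi cells. These 3 groups did not overlap, and the inhibitor group lay between the others. Gpx4 was at 58.3, 69.7 and 69.8 in naïve cells, 118, 92.5 and 80 FPKM in TCR cells and 65.3, 66.2 and 64.6 FPKM in TCR+PI3Kdi cells. TCR libraries were above all others, and the inhibitor libraries lay inside the naïve range. From naïve to TCR cells the log2 fold changes were 0.68 ± 0.09 (SE, adjusted p = 1.67e-05) for Gpx1 and 0.54 ± 0.13 (adjusted p = 0.00228) for Gpx4.

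On removal of IL-2 from CTL, the mRNA of these peroxidases went in opposite directions. Gpx1 was at 129, 168 and 141 FPKM with IL-2 and 117, 99.2 and 94.6 FPKM without. Gpx4 was at 77.4, 88.8 and 81.4 FPKM with IL-2 and 103, 106 and 107 FPKM without. Neither mRNA overlapped between the groups. The log2 fold changes were -0.49 ± 0.12 (SE, adjusted p = 0.00353) for Gpx1 and 0.35 ± 0.08 (adjusted p = 0.00232) for Gpx4, both under 2-fold. Without replicate 2 the adjusted p for Gpx1 was 0.0571, with a log2 fold change of -0.36.

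Calls needed an adjusted p under 0.05 in limma together with more than 2-fold change in either direction. From naïve to TCR cells, 5 of the 10 mRNA were called higher (Txn1, Txnrd1, Prdx1, Prdx4 and Srxn1), against 25% of all mRNA tested, and 1, Txnip, was called lower, against 23.7%. Without the fold limit 8 were higher, with Gclm, Gpx1 and Gpx4 added, against 40.9% of all mRNA, and 1 was lower, against 39.8%. The median log2 fold change was 1.09 over the 10 mRNA and 0.01 over all mRNA. As a large share of all mRNA changed on activation, these counts are a description of the 10 genes.

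Inhibition of p110δ asks which of these changes need PI3K signalling during activation. By the 2-fold rule 0 of the 10 mRNA were called higher, against 3.04% of all mRNA, and 0 were called lower, against 2.1%. Of the 10, 4 had an unadjusted p under 0.05 in limma, namely Txnip, Gclc, Gpx1 and Gpx4. On the adjusted p alone, 1 was higher (9.35% of all mRNA) and 2 were lower (8.19%). The one that was higher is Txnip, with a log2 fold change of 0.44 ± 0.14 (SE, adjusted p = 0.0481), or 1.36-fold, against a 13.6-fold fall on activation. The lower ones are Gpx4, at -0.55 ± 0.13 (adjusted p = 0.0145), and Gpx1, at -0.28 ± 0.09 (adjusted p = 0.0424). For Gclc the log2 fold change was 0.35 ± 0.11, with an adjusted p of 0.0588.

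These small effects depended on the fit. With the replicate number as a block, the adjusted p was 0.069 for Txnip, 0.0524 for Gpx1, 0.0256 for Gpx4 and 0.0324 for Gclc. Over 11 alternatives it ranged from 0.024 to 0.271 for Txnip, from 0.0303 to 0.257 for Gpx1, from 0.0146 to 0.149 for Gpx4 and from 0.0324 to 0.406 for Gclc, with the direction of each the same throughout. For the other members the 95% intervals of the log2 fold change were -0.67 to 0.13 for Txn1, -0.26 to 0.26 for Txnrd1, -0.35 to 0.11 for Gclm, -0.19 to 0.64 for Prdx1, -0.11 to 0.41 for Prdx4 and -0.47 to 0.53 for Srxn1. The 95% intervals of all 10 mRNA in this comparison thus lay within 2-fold in either direction.

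TCR+PI3Kdi cells were also set against naïve cells, which shares the naïve libraries with the comparison above. The same 5 mRNA were called higher, against 23.6% of all mRNA, and Txnip was called lower, against 21.3%. Without the fold limit 7 were higher (40.1% of all mRNA) and 1 was lower (39%). The log2 fold changes were -3.32 for Txnip, 2.87 for Txn1, 1.82 for Txnrd1, 1.68 for Prdx1 and 3.32 for Prdx4. Gclm was higher by 0.60 and Gpx1 by 0.40. Gpx4 differed from naïve cells by -0.01, with a 95% interval from -0.29 to 0.28, and Gclc by 0.19 (interval -0.06 to 0.44).

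In CTL the comparison asks what 24 h without IL-2 changes. Of the 10 mRNA, 1 was called higher, Txnip, against 14.3% of all mRNA, and 3 were called lower, Txnrd1, Prdx1 and Srxn1, against 13.9%. Without the fold limit 2 were higher (Txnip and Gpx4, against 35.2%) and 5 were lower (Txn1 and Gpx1 in addition, against 36.6%). The median log2 fold change was -0.26 over the 10 mRNA and 0.00 over all mRNA. Of the mRNA with an adjusted p under 0.05 both on IL-2 removal and on TCR activation, Gpx4 rose in both. Txnip, Txn1, Txnrd1, Prdx1, Gpx1 and Srxn1, the last from naïve values listed at 0, had opposite signs in these comparisons. The share of all mRNA with opposite signs was not counted, so this describes these genes only.

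**Figure D3:**
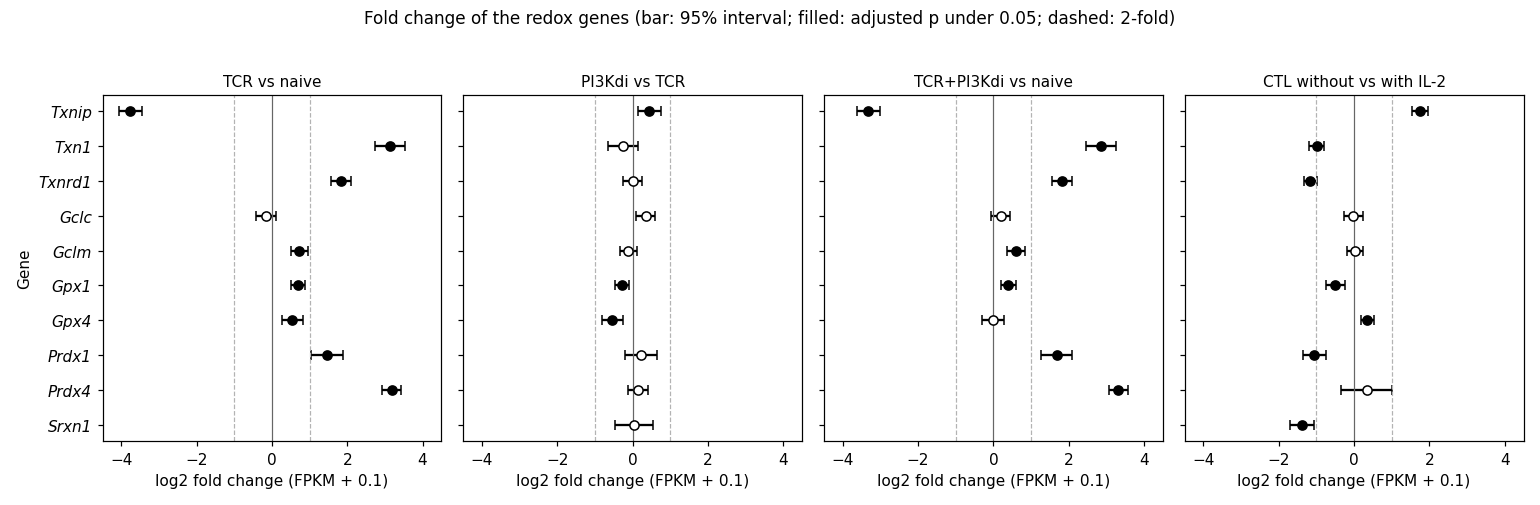
Log2 fold change of each of the 10 mRNA in the 4 comparisons, on log2(FPKM + 0.1), with its 95% interval as a bar. Filled points have an adjusted p under 0.05 and dashed lines mark 2-fold. Srxn1 is not drawn against naïve cells, where it is listed at 0. Txnip is the lowest point of both comparisons with naïve cells and the highest on IL-2 removal, and all intervals for PI3Kdi lie inside the dashed lines.

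Other genes of the redox network were grouped in 10 lists, chosen with earlier results of these data known. Of 115 such genes in the first table, 35 were called higher in TCR than in naïve cells, or 30.4% against 25% of all mRNA, and 26 lower, or 22.6% against 23.7%. The counts by list that follow are descriptions, to be read against these shares. Of the other thioredoxin genes, 6 of 20 were higher and 4 lower, among them the reductase Txnrd3 (log2 fold change 3.12), Txnl1 (2.02), nucleoredoxin Nxn (1.82) and Txndc5 of the endoplasmic reticulum (1.46). Of the other peroxiredoxins, sestrins and oxidases of the endoplasmic reticulum, 5 of 12 were higher and 4 lower. The oxidase Ero1l, which passes electrons from protein thiols to oxygen, rose by 2.30. The sestrins parted, with Sesn2 at 1.72, Sesn1 at -2.70 and Sesn3 at -1.72.

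Glutathione synthesis, breakdown and recycling had 5 of 12 genes higher and 3 lower. The cell surface γ-glutamyl transferases Ggt1 and Ggt5, which begin the breakdown of glutathione outside the cell, fell by 6.87 and 5.36 on the log2 scale, and the 5-oxoprolinase Oplah fell by 2.87. Chac1, an enzyme that degrades glutathione inside the cell, was blank in all naïve libraries and was at 6.17, 1.57 and 1.98 FPKM in TCR cells. Of other glutathione peroxidases and transferases 6 of 15 were higher and 4 lower, with Mgst2 at -4.31, Gstk1 at -2.46 and Gstt3 at 2.42, a call lost with a pseudocount of 1 (0.85). Hpgds was at 0.37 to 0.47 FPKM in naïve cells and blank in TCR cells. Of 4 glutaredoxins 1 was higher, Glrx3 at 1.25, a call lost without replicate 3 (0.65), and 1 was lower, Glrx at -2.44.

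Of superoxide dismutases and catalase, 2 of 4 were higher, the cytosolic Sod1 (1.15) and the mitochondrial Sod2 (1.28), and catalase, Cat, was lower (-1.60). Of regulators and further targets of NRF2, the factor that induces many antioxidant genes, 4 of 18 were higher and 3 lower. The small MAF partners of NRF2, Maff and Mafg, rose by 2.67 and 2.47, the heme oxygenase Hmox1 by 2.75, and the repressor Bach1 fell by 2.45. The other called genes of this list were Blvra (1.19), Nqo2 (-2.34) and Sqstm1 (-1.24). Nfe2l2, which encodes NRF2, was not called and had means of 34.2 FPKM in naïve and 26.5 FPKM in TCR cells. On the adjusted p alone 9 genes of this list were higher and 6 lower, and NRF2 activity was not tested. By the 2-fold rule 4 of 10 genes of NADPH supply were called higher and none lower, and on the adjusted p alone 5 were higher and 3 lower. Those called by the 2-fold rule were Tkt (1.78), G6pdx (1.26), Nadk (1.03) and Pgd (1.03). The Pgd call was lost without TCR replicate 1 (0.97), and that of Nadk without replicate 2 (0.98). Of genes for selenoprotein synthesis and other selenoproteins, 2 of 14 were higher and 4 lower, with Sepn1 at -4.30, Sepsecs at -1.91, Secisbp2l at -1.32 and Sephs1 at 1.62. Some levels under these symbols differed widely from those in CTL. Sepsecs had a mean of 516 FPKM in naïve cells and 6 in CTL with IL-2, and Sephs2 had 0.98 and 55.7. Only the symbols of the 10 members were checked against gene identifiers, so values of this list may belong to other genes. Of 6 genes of the MondoA-MLX and arrestin-domain list, 2 were lower and none was higher. They are Arrdc1 (-1.89) and Arrdc3 (-1.56), which encode relatives of TXNIP.

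With PI3Kdi, 4 of these 115 genes were called higher, or 3.48% against 3.04% of all mRNA, and 3 lower, or 2.61% against 2.1%, shares near those of all mRNA. Glrx was at 1.69, 1.55 and 3.81 FPKM in TCR cells and 4.55, 6.15 and 12.7 FPKM in TCR+PI3Kdi cells, a log2 fold change of 1.67 (adjusted p = 0.0124). Bach1 was higher by 1.08 (adjusted p = 0.00544), Ggt5 by 1.55 (adjusted p = 0.000413) and Ggt1 by 1.10 (adjusted p = 0.0386). Chac1, Sesn2 and Gstt3 were lower by log2 fold changes of -2.87, -1.25 and -1.01, with adjusted p of 0.021, 0.019 and 0.0495. Sesn2 and Chac1 were highest in TCR replicate 1, at 13 and 6.17 FPKM. Without that library the log2 fold changes were -0.84 for Sesn2, -2.29 for Chac1 and 0.88 for Bach1, none of which passed both limits. Of the 7 calls, 5 remained without replicate 1 of every group, 1 without replicate 2, that of Ggt5, and 3 without replicate 3. With a pseudocount of 1, 3 of the 7 remained, and those of Ggt5 (0.39), Ggt1 (0.31), Bach1 (0.77) and Gstt3 (-0.47) were lost. With the replicate block the call of Ggt1 was lost.

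In TCR+PI3Kdi cells against naïve cells 28 of the 115 were higher (24.3%, against 23.6% of all mRNA) and 22 lower (19.1%, against 21.3%). In CTL without IL-2, 15 of 122 were higher (12.3%, against 14.3% of all mRNA) and 23 lower (18.9%, against 13.9%). Of 11 genes of NADPH supply, 4 were called lower and none higher, and on the adjusted p alone 8 were lower and 1 was higher. The 4 are Me1 (-1.54), Pgd (-1.30), Tkt (-1.11) and G6pdx (-1.05, and -0.95 without replicate 3). Of 13 genes of glutathione synthesis, breakdown and recycling, 5 were lower and 3 higher. Gsr, which renews reduced glutathione, was at 54.2, 55.2 and 64.5 FPKM with IL-2 and 16.4, 14.5 and 14.5 FPKM without, a log2 fold change of -1.93 ± 0.10 (SE). Chac1 was at -3.62, Lap3, a peptidase that can act on glutathione breakdown products, at -1.95 and Oplah at 1.64.

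Of 20 other thioredoxin genes, 5 were lower without IL-2 and 1 was higher, with Txnrd3 at -2.50, Txndc5 at -1.24, Txndc11 at -1.09 and Txndc16 at 1.37. Of the peroxiredoxin, sestrin and ER oxidation list 2 of 12 were higher, Sesn1 (1.13, and 0.89 without replicate 3) and Qsox1 (1.00, and 0.88 without replicate 3), and 2 were lower, Sesn2 (-1.41) and Ero1l (-1.26). Of the NRF2 list 2 of 20 were higher, Bach1 (1.30) and Blvrb (1.44), and 2 were lower, Mafg (-2.01) and Maff (-1.96). Of 17 glutathione peroxidases and transferases, 4 were higher, with Hpgds at 3.41, Gstm1 at 2.54 and Gstt2 at 1.69, and 3 were lower, with Gpx8 at -1.64. None of 4 glutaredoxins was called, and 1 of 4 in the superoxide dismutase and catalase list was higher, the copper chaperone Ccs (1.33). Of 15 in the selenoprotein list, 1 was higher and 2 were lower. The one that was higher is Sepp1, a secreted selenium carrier, at 23.5, 23.2 and 16.6 FPKM with IL-2 and 234, 215 and 270 FPKM without, and the lower ones are Sephs2 (-1.16, and -0.99 without replicate 3) and Selm (-1.12). Arrdc3 was the 1 gene of 6 called in the MondoA-MLX and arrestin-domain list, at 1.14. The calls of Arrdc3, Gstm1, Me1 and Qsox1 were lost with a pseudocount of 1.

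**Figure D4:**
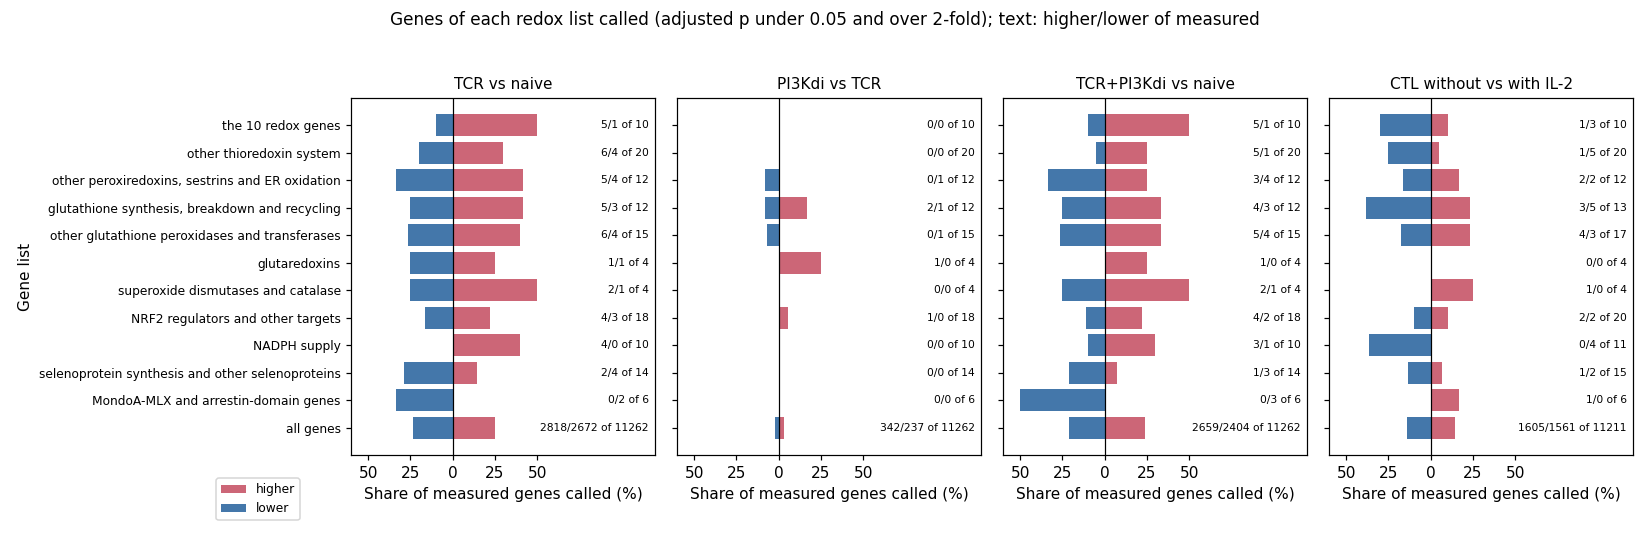
Share of the measured genes of each list called higher (right) and lower (left) in the 4 comparisons, in percent, with counts as higher/lower of measured and all mRNA in the last row. In TCR against naïve cells every list had 2 or more genes called, and with PI3Kdi against TCR cells no list had more than 3.

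Txnip was the one member called lower on activation, and the mRNA with the most similar course over the 9 libraries of the first table were sought by Pearson r of log2(FPKM + 0.1). The 5 with the highest r, out of 10072 with a mean of at least 1 FPKM, were Sun2 (0.9993), Ramp1 (0.9991), B4galt1 (0.9984), Traf3ip3 (0.9982) and Lypd6b (0.9981). The 9 points are 3 groups of 3 libraries, so r mostly reflects the gap between naïve and activated cells. Sun2, which encodes a protein of the inner nuclear membrane, had group means of 222 FPKM in naïve, 16.7 in TCR, 23.5 in TCR+PI3Kdi, 44.4 in CTL with IL-2 and 167 in CTL without IL-2.

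Because Txnip moved against Txnrd1 and Prdx1, the letters of their promoters are shown. Txn1, which also moved against Txnip, had a window with no match to the FOXO letters or the antioxidant response element core searched here and is not printed. RefSeq windows of build GRCm38.p6 (mm10), from 250 bases before to 50 bases after a transcription start, were found for 9 of the 10 genes, in 14 windows in all, and Gclc was not searched. Both strands were searched for TGACNNNGC, the core of the antioxidant response element bound by NRF2 with a small MAF protein, for TGTTTAC, a FOXO site, for the E-box CACGTG, and for CCAAT and TATAAA. No matches to different motifs shared a base. The stretches printed here run from 180 to 61 bases before the start on the plus strand, and capitals mark the match to the FOXO letters in Txnip and to the antioxidant response element core in Txnrd1 and Prdx1, all read here on the opposite strand.
Txnip, chr3:96557777-96557896: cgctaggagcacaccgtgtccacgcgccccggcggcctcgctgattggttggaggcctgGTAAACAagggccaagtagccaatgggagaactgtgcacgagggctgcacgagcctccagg
Txnrd1, chr10:82859026-82859145: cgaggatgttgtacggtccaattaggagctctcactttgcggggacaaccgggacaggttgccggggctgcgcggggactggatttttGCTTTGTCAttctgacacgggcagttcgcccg
Prdx1, chr4:116685419-116685538: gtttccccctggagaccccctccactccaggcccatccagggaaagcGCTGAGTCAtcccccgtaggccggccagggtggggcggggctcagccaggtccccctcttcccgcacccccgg

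The antioxidant response element core was found in 4 of the genes. It began 92 bases before the start in 1 of the 3 Txnrd1 windows, 133 bases before it in Prdx1, 134 bases before it in Gclm and 29 bases into the transcript in Srxn1. Of all 32851 windows of the same length 12.4% held a match. This share and those below are per window, whereas genes were counted once over all their windows, 3 for Txnrd1 and 4 for Gpx4. The genes and these shares are therefore not a like comparison. Of the 4 genes with the core, Txnrd1, Prdx1 and Srxn1 were called lower without IL-2, against 13.9% of all mRNA. Gclm was not called in any comparison by the 2-fold rule. The share called among all genes with the core was not counted, and a link between these letters and the calls was not tested. The FOXO letters were found in Txnip alone of the 9 genes searched, 121 bases before the start, and in 3.65% of all windows. CACGTG was found in Prdx4 alone of these 9, 52 bases before the start, and in 7.15% of all windows. CCAAT was present in Txnip, Gclm, Gpx4, Txnrd1 and Prdx4, against 37.4% of all windows, and TATAAA in Txn1 and Prdx1, against 13.6%. A match of letters is a description and not a bound site.

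In mm10 the genes lie on chromosome 3 from 96557957 to 96561857 (Txnip) and from 122245487 to 122267215 (Gclm), and on chromosome 4 from 57943373 to 57956411 (Txn1) and from 116685599 to 116700000 (Prdx1). Txnrd1 lies on chromosome 10 from 82833951 to 82897724 and Gpx4 on the same chromosome from 80047166 to 80056439. Gclc and Gpx1 lie on chromosome 9, from 77754535 to 77794489 and from 108339080 to 108340342. Srxn1 is on chromosome 2 from 152105524 to 152111376, and Prdx4 is on chromosome X from 155323918 to 155342272. Txnip overlaps the antisense RNA Gm15441, and Txnrd1, Gclm and Prdx1 overlap other annotated genes, so reads in shared stretches are uncertain where counting did not use strand, which the sources used here do not state. Transcripts of other genes with at least 95% identity over at least 150 bases were found for Txn1 (1 pseudogene), Prdx1 (2 pseudogenes) and Gpx4 (a pseudogene and 1 further transcript), whose reads may have been shared with these copies. For Txnip the one such transcript was Gm15441 itself.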

How the data were processed

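RNA was sequenced as paired-end reads from stranded mRNA libraries of 5 groups with 3 replicates each. The authors deposited 2 tables of FPKM. The authors' methods and the labels state that reads were aligned with STAR 2.5.2b to mm10 and counted per gene with Subread 1.5.1, low genes were removed with filterByExpr, counts were TMM normalised in edgeR, and FPKM were computed with the summed length of non-overlapping exons. The methods do not describe the CTL table, whose labels name the same tools. Deposited values have 2 decimals, and blank cells of the first table, 46 to 252 per library, were read as 0. Groups come from the sample titles. The treatment labels of 2 CTL samples titled IL2 give another interleukin number.

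Values of log2(FPKM + 0.1) were fitted with limma 3.58.1 in R 4.3.3 with an intensity trend, the 9 libraries of the first table in one fit and the 6 CTL libraries in another. Adjusted p-values are by the Benjamini-Hochberg method over all mRNA of a table, and fold changes are on this scale, which understates those of low genes. The fits were tested on simulated data with 200 changed genes per comparison, with 97.5% to 99.5% recovered and 1 to 4 false calls. Every planted change was well above the 2-fold limit, in a gene with a mean of at least 1 FPKM, and no shared pools were simulated. Recovery of changes near or below that limit was not tested. Tables and figures were made in Python 3.11.15.

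Each pool was divided over the conditions per the labels of the first table, so a shared replicate number was read as a shared pool. For CTL no pool is given, so the replicate block there rests on the numbers alone. The main fits did not use the block. Deviations from the group means were correlated over genes between libraries with the same number. The mean r was 0.328 between TCR and TCR+PI3Kdi (0.2025 to 0.506), 0.182 between the CTL groups (0.123 to 0.257) and -0.032 between naïve and TCR cells. Between libraries with different numbers the mean r was, in the same order, -0.1615 (up to 0.191), -0.0893 (up to 0.0912) and 0.0167 (up to 0.378).

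The members, the gene lists and the tests were chosen with earlier results of these data known. Named were all 10 members, up to 4 called genes with the largest fold change per other list and comparison, and the 5 mRNA with the highest r with Txnip. For the NRF2 list in TCR against naïve cells, the remaining called genes and Nfe2l2 were named in addition. Alternatives were a pseudocount of 1 or 0.01, a mean of at least 1 FPKM, median scaling, the replicate block, no trend, only the groups compared, other fold limits and leaving out each replicate number. Leaving out TCR replicate 1 alone, and the alternatives for genes of the other lists, were added after seeing the data.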

Additional observations from a re-analysis of the deposited data

How the results depend on the processing

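In TCR against naïve cells, 108 of 109 refitted values of the 10 mRNA kept their direction and their side of the limits, and the exception was the call of Srxn1, lost with a pseudocount of 1. The same call was lost in TCR+PI3Kdi against naïve cells. Leaving out the fold limit gave 8 mRNA higher in TCR cells, 1 higher and 2 lower with PI3Kdi, and 2 higher and 5 lower in CTL without IL-2. The replicate block changed no call by the 2-fold rule among the 10 mRNA, with 5 higher and 1 lower in TCR cells. On IL-2 removal Txn1 passed the 2-fold limit without replicate 2 (-1.05) and Prdx1 failed it without replicate 3 (-0.97).

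Signs turned for mRNA close to no change. For PI3Kdi against TCR cells, leaving out replicates gave -0.15 to 0.12 for Txnrd1 (0.000778 with median scaling), -0.00624 to 0.33 for Prdx1, -0.00858 to 0.27 for Prdx4 and -0.15 to 0.13 for Srxn1. The low values of Prdx1 and Srxn1 without TCR replicate 1 alone were -0.00624 and -0.14. Gpx4 in TCR+PI3Kdi against naïve cells ranged from -0.0929 to 0.0439, and was 0.0749 with median scaling. On IL-2 removal Gclc ranged from -0.19 to 0.0635 (0.0219 with median scaling) and Gclm from -0.0971 to 0.09999. Median scaling moved the median log2 fold change of all mRNA by under 0.1. Srxn1 has no value in the first table with the filter of a mean of 1 FPKM. Without read totals, no limit of detection can be given for low mRNA such as Srxn1.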
